A study of Mus musculus with 12 samples.

Results

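The 9 genes described here belong to the class I major histocompatibility complex (MHC) pathway and to the response of cells to interferon: B2m, H2-K1, H2-D1, Tap1, Erap1, Ifitm2, Ifitm3, Ifi27 and Xaf1. They were taken as the rows of the deposited count table whose Ensembl gene ID carries 1 of these 9 symbols, out of 14675 gene IDs, and all 9 symbols were found. The material was labelled as adult dorsal root ganglion (DRG) neurons of mice of genotype RPL22HA+/+;Advillin-Cre+, a RiboTag line in which the Cre driver Advillin, a gene of sensory neurons, puts an HA tag on RPL22, a protein of the ribosome. The 4 groups were total RNA (input) and anti-HA immunoprecipitated, ribosome-bound RNA (IP), each after AAV-shGpr151, a virus with a short hairpin RNA against Gpr151, or after the same virus given with AAV-e5'UTR (called e5UTR below). Each group has 3 columns in the deposited table. All 4 groups carry the hairpin, the identity of the e5'UTR insert is not stated in the labels, and a group without the hairpin was not analysed here. The series' design text also names cultured neurons of mice with a prior sciatic nerve injury, a treatment that all groups would share, whereas the protocol names freshly collected ganglia, and which of the 2 applies is not clear from the labels. Age, sex and the number of animals per group are not stated there either.

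A class I molecule is a heavy chain, such as those encoded by H2-K1 and H2-D1, held together with the light chain beta-2 microglobulin, encoded by B2m. Peptides made in the cytosol are carried into the endoplasmic reticulum by the transporter of which TAP1 is a subunit, are trimmed there by the aminopeptidase ERAP1, and are then loaded onto the heavy chain for display to CD8 T cells. Interferons act through receptors, JAK kinases and STAT factors on response elements near the start of target genes, and most of the 9 genes are known to be induced in this way. IFITM2 and IFITM3 are membrane proteins that restrict the entry of viruses, IFI27 is a small membrane protein induced by type I interferon, and XAF1 was named for its binding to the apoptosis inhibitor XIAP. Resting neurons are known for low class I levels, and immune cells, glia and endothelial cells of the ganglion are known to express these genes.

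Matches to the sequence patterns through which interferon is known to act are shown for the genes whose annotated start region holds one. Whether these sites are used in these cells was not tested. RefSeq promoter windows of the mouse build GRCm38.p6, from 250 bases before to 50 bases after an annotated start, were matched for 8 of the 9 genes by symbol. The counts were made on another build, so the coordinates below belong to the RefSeq windows only. Both strands were searched for the core of the interferon-stimulated response element, GAAANNGAA, and for the gamma-activated site TTCNNNGAA, which reads the same on both strands. The first was present in the windows of 4 of the 8 genes, against 9.76% of the 27025 genes with a window (8.56% of all 32851 windows of this length), and the second in 1 of the 8, against 9.55% of genes (8.3% of windows). Each line gives 30 bases on the strand of the gene, 5′ to 3′, with the response element core in capitals.
B2m, chr2:122147538-122147567, + strand: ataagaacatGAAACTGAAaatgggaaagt
Erap1, chr13:74639834-74639863, + strand: ccggtccaccTTCACTTTCactttcggtcc
Ifitm2, chr7:140955988-140956017, - strand: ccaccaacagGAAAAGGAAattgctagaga
Ifitm3, chr7:141010723-141010752, - strand: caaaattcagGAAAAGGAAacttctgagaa

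The match in B2m begins at offset -139 from the annotated start and that in Ifitm2 at -46. The Erap1 match lies on the opposite strand, so its capitals are the reverse complement of the core, and it begins at offset -9, with a second, overlapping match at -3. The Ifitm3 match begins at offset 2, a second one begins at 19, and the gamma-activated site begins at 13 and overlaps the second core. The capitals in Ifitm2 and Ifitm3 are the same 9 letters. No match was found in the windows of H2-K1, H2-D1, Tap1 and Xaf1, which says only that these letters are not in those windows.

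The columns held 975403 to 985277 estimated counts in the input groups and 1381220 to 1517685 in the IP groups. The 3 columns of a group had totals within 0.201% of each other, and the median gene's chi-square between them was 1.08 to 1.12 times the value from counting alone. They were therefore counted as 1 sample, a pool, and the design has 4 pools: 2 of input and 2 of IP. Nothing says that the columns come from separate animals, so a p-value reflects only how these pools or columns vary, and the 2 pools of a fraction differ in treatment. The pools held 2928926 to 2954427 counts in input and 4145071 to 4549204 in IP. Levels are given as CPM, counts relative to the size of the library, after scaling by TMM, edgeR's method that centres the bulk of genes, with an exact Poisson 95% interval that covers counting error only. The floor was set at 3 counts rather than by that interval, which is 1.43 and 1.44 CPM in the input pools and 0.531 and 0.488 CPM in the IP pools. A gene was called higher or lower at an adjusted p under 0.05 in edgeR's quasi-likelihood test.

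B2m, the light chain, was present in every column. In input its columns held 374, 357 and 393 counts after the hairpin alone and 361, 379 and 374 after e5UTR. In IP they held 626, 626 and 614 after the hairpin alone and 845, 830 and 820 after e5UTR. The 3 columns with e5UTR in IP lay above those of IP shGpr151 without overlap, whereas the 2 input groups overlapped. Here and below such gaps are between raw counts, and the IP columns with e5UTR were deeper (1514948 to 1517685 counts against 1381220 to 1382261). The 3 columns of a group count as 1 pool, so a gap is not a replicate check. How many of all genes separate in this way was not counted. On the CPM scale the pools of B2m stood at 536 (505 to 568) and 534 (503 to 566) in input and at 330 (315 to 345) and 406 (390 to 422) in IP, in the order shGpr151 and e5UTR.

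The 2 classical heavy chains were also present in every column. Without e5UTR, H2-K1 had 21, 15 and 19 counts in input and 43, 49 and 36 in IP, and with e5UTR it had 15, 17 and 20 in input and 50, 45 and 55 in IP. Its levels in the order input shGpr151, input e5UTR, IP shGpr151 and IP e5UTR, which is kept below, were 26.2 CPM (19.8 to 34.1), 24.9 (18.6 to 32.7), 22.6 (18.9 to 26.9) and 24.4 (20.6 to 28.6), and the intervals of all 4 pools overlapped. Without e5UTR, H2-D1 had 46, 42 and 41 counts in input and 131, 146 and 128 in IP, and with e5UTR it had 50, 44 and 47 in input and 173, 168 and 186 in IP. The IP columns of H2-D1 with e5UTR also lay above those without it in raw counts. Its levels were 61.5 CPM (51.4 to 73.1), 67.6 (56.9 to 79.7), 71.6 (64.8 to 79.0) and 85.7 (78.6 to 93.4), and only the lowest and the highest of these pools had intervals that did not overlap. H2-K1 and H2-D1 are close copies of each other, as are Ifitm2 and Ifitm3, and how the authors counted reads that match both is not stated, so their separate values are uncertain.

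The 2 genes of peptide supply differed in their pattern. Tap1, the transporter subunit, was near the floor: without e5UTR it had 0, 4 and 3 counts in input and 6, 5 and 4 in IP, and with e5UTR it had 2, 0 and 2 in input and 7, 3 and 2 in IP. It stood between 1.92 and 3.34 CPM in the 4 pools with overlapping intervals and did not pass the filter on low counts, so 8 of the 9 genes were tested. Erap1, the trimming aminopeptidase, had 63, 60 and 46 counts in input and 2, 10 and 6 in IP without e5UTR, but 3, 13 and 11 in input and 19, 11 and 8 in IP with it. The 3 columns of input shGpr151 lay above the other 9 without overlap. Its levels were 80.6 CPM (68.9 to 93.7), 12.9 (8.52 to 18.8), 3.18 (1.89 to 5.03) and 6.18 (4.37 to 8.48).

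Of the 2 antiviral membrane proteins, Ifitm2 had 146, 104 and 117 counts in input and 160, 138 and 149 in IP without e5UTR, and 109, 102 and 123 in input and 153, 152 and 172 in IP with it. Ifitm3 had 217, 214 and 201 counts in input and 308, 317 and 312 in IP without e5UTR, and 193, 211 and 214 in input and 403, 419 and 404 in IP with it. The IP columns of Ifitm3 thus separated by treatment and those of Ifitm2 did not. In CPM, Ifitm2 stood at 175 and 160 in input and at 79.1 and 77.6 in IP, and Ifitm3 at 301 and 296 in input and at 166 and 199 in IP.

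Ifi27 and Xaf1, the other interferon-induced members, ran in opposite directions between the fractions. Ifi27 had 98, 128 and 108 counts in input and 476, 417 and 457 in IP without e5UTR. With e5UTR it had 129, 105 and 96 in input and 599, 571 and 570 in IP, again without overlap between the 2 IP groups. Xaf1 had 388, 355 and 392 counts in input and 153, 138 and 166 in IP without e5UTR, and 372, 354 and 320 in input and 158, 140 and 152 in IP with it. Its columns did not separate by treatment in either fraction. Ifi27 stood at 159 (143 to 177) and 158 CPM (142 to 176) in input and at 239 (226 to 252) and 283 (270 to 297) in IP, and Xaf1 at 541 (510 to 574), 501 (471 to 532), 80.8 (73.6 to 88.6) and 73.2 (66.6 to 80.3).

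**Figure D1:**
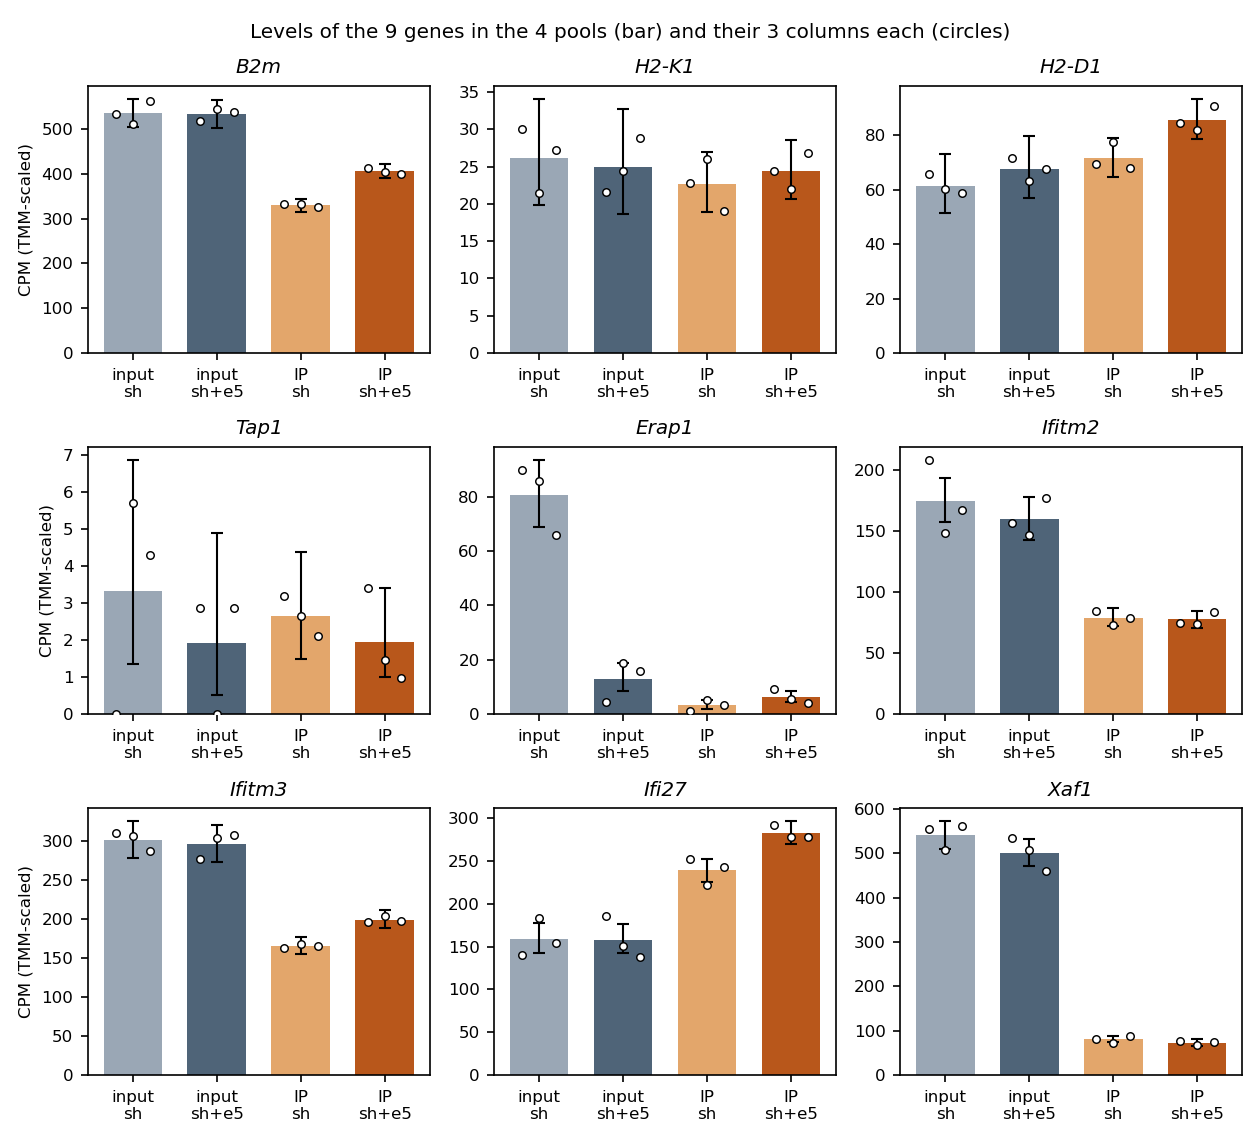
Levels of the 9 genes, 1 panel each. The vertical axis is CPM of the TMM-scaled library size on a linear scale from 0, with its own range in every panel. Bars are the 4 pools, from left to right input shGpr151, input shGpr151 with e5UTR, IP shGpr151 and IP shGpr151 with e5UTR, error bars are exact Poisson 95% intervals and circles are the 3 columns of each pool. Erap1 is high in input shGpr151 alone, at 80.6 CPM, Xaf1 is at 541 and 501 CPM in input against 80.8 and 73.2 in IP, and Ifi27 is higher in both IP pools.

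The comparison of IP with input addresses which RNAs sat on the tagged neuronal ribosomes. With the 4 pools as samples, 1 member was higher in IP (Ifi27), 5 were lower (B2m, Erap1, Ifitm2, Ifitm3 and Xaf1) and 2 did not pass (H2-K1 and H2-D1). Over all 8085 genes tested, 33.5% were called higher and 36.2% lower, so a call in either direction was common. The median log2 difference of the 8 tested members was -0.62 and that of all tested genes 0.06. In bulk RNA of this kind, fewer cells of a type and less RNA per cell cannot be told apart.

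The scaling sets the sign of the small differences. Library totals in place of TMM moved the median of all tested genes up by 0.94 on the log2 scale, called 62.4% of genes higher and 23.4% lower, and called 4 members higher (B2m, H2-K1, H2-D1 and Ifi27) and 2 lower (Erap1 and Xaf1). Differences relative to the median of all genes barely depend on this choice and are given beside the TMM values. Only Ifi27 among the higher calls, and Erap1 and Xaf1 among the lower calls, were made in the same direction under both scalings. Within the e5UTR pools, however, the interval of Erap1 by library totals included equal levels, as given below.

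Xaf1 had the firmest difference among the members. Its log2 difference of IP from input was -2.76 ± 0.13 (SE, 2 pools against 2, edgeR adjusted p = 2.41e-10), or -2.82 relative to the median gene, and -1.82 with library totals. The ratio of IP to input was 0.149 (0.134 to 0.167) within shGpr151 and 0.146 (0.13 to 0.163) with e5UTR, so both treatments gave nearly the same value. Erap1 was at -3.30 ± 0.58 (edgeR adjusted p = 0.000193), or -3.36 relative to the median gene, but its 2 input pools were far apart. Its ratio of IP to input was 0.0395 (0.0229 to 0.0644) within shGpr151 and 0.478 (0.284 to 0.814) with e5UTR. With library totals Erap1 had ratios of 0.0759 (0.0439 to 0.124) and 0.906 (0.539 to 1.54), so with e5UTR the interval included equal levels. Without the pool IP shGpr151 it was at -2.91 (edgeR adjusted p = 0.0727) and without the pool IP with e5UTR at -3.77 (0.0524). It was at -1.45 without the pool input shGpr151 and still called (edgeR adjusted p = 0.00386). Each such fit leaves 1 fraction with a single pool, which is assumed to vary like the others.

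Ifitm2 was at -1.10 ± 0.13 (edgeR adjusted p = 3.65e-06), and Ifitm3 was at -0.71 ± 0.13 (0.000225). With library totals Ifitm2 was at -0.16 (edgeR adjusted p = 0.261) and Ifitm3 at 0.23 (0.102), and neither was called. Relative to the median gene they stood at -1.16 and -0.77 with TMM. B2m was at -0.54 ± 0.12 (edgeR adjusted p = 0.00157), or -0.60 relative to the median gene, but at 0.40 and called higher (0.00738) with library totals.

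Ifi27 was 1.64-fold higher in IP (log2 0.72 ± 0.13, edgeR adjusted p = 0.000238), or 0.66 above the median gene, and 3.16-fold higher with library totals. Its ratio was 1.5 (1.33 to 1.7) within shGpr151 and 1.79 (1.59 to 2.02) with e5UTR. H2-D1 was at 0.29 ± 0.15 (edgeR adjusted p = 0.0991) with the pools as samples, or 0.23 above the median gene. It was called higher at 0.32 ± 0.09 with the 12 columns as samples (edgeR adjusted p = 0.00248) and at 1.23 with library totals (5.88e-06). Of the 4 fits without 1 pool, the fit without IP shGpr151 called it (0.41, edgeR adjusted p = 0.0226), with a lone IP pool, and the other 3 did not (0.0994 to 0.439). H2-K1 was at -0.12 ± 0.19 (edgeR adjusted p = 0.594), or -0.18 relative to the median gene, and at 0.82 with library totals (0.00123). Tap1 had ratios of 0.795 (0.305 to 2.3) and 1.02 (0.309 to 4.33), and a difference was not detectable at this depth.

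**Figure D2:**
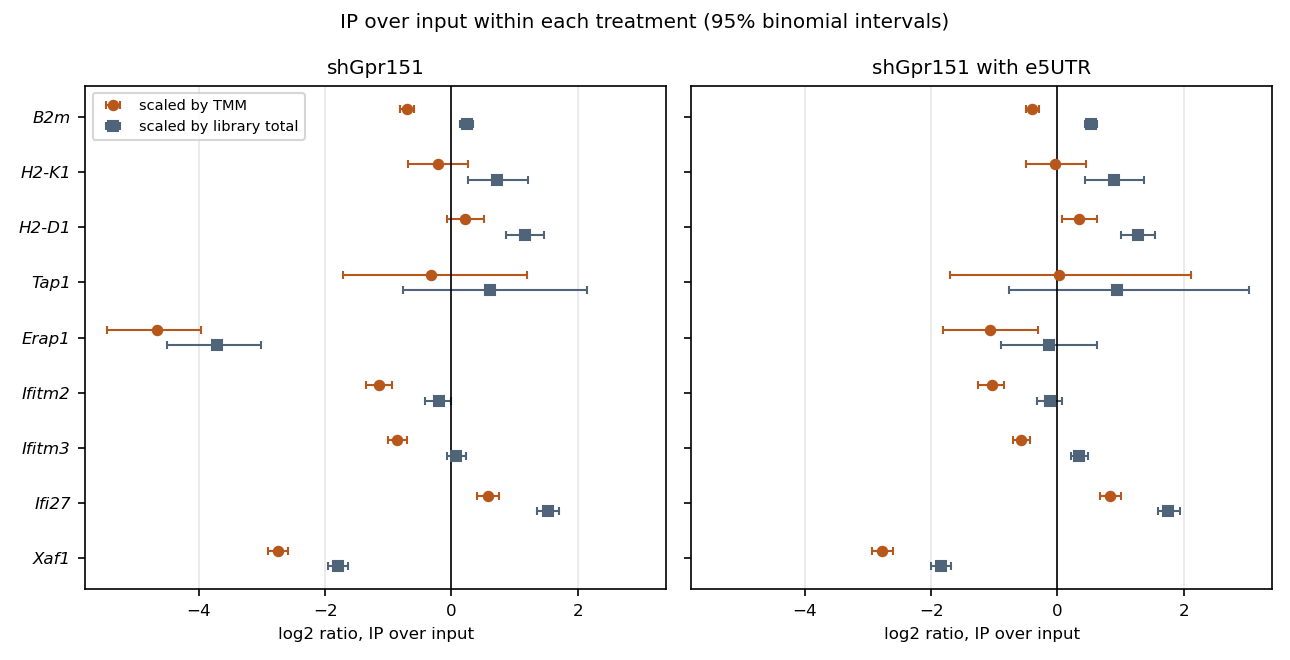
Ratio of IP to input for each gene within shGpr151 (left) and within shGpr151 with e5UTR (right). The horizontal axis is the log2 ratio of the pooled counts, circles are scaled by TMM and squares by library total, and bars are exact binomial 95% intervals. Every square lies to the right of its circle. Xaf1 lies left of 0 and Ifi27 right of 0 under both scalings and in both panels, and Erap1 lies at -4.66 on the left but at -1.07 on the right with TMM.

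Shares within pairs of genes do not depend on the scaling. They are shares of counts and not of molecules per length, so they are compared only between pools. Ifi27 made up 22.7% (20.6 to 25.0, Clopper-Pearson) of the counts of Ifi27 and Xaf1 in input shGpr151 and 24% (21.7 to 26.3) in input with e5UTR, against 74.7% (72.6 to 76.7) and 79.5% (77.7 to 81.1) in IP. Ifitm3 made up 63.3% (60.2 to 66.3) and 64.9% (61.8 to 67.9) of the counts of Ifitm3 and Ifitm2 in input, against 67.7% (65.2 to 70.2) and 72.0% (69.8 to 74.1) in IP. H2-D1 made up 70.1% (62.9 to 76.6) and 73.1% (66.2 to 79.2) of the counts of the 2 heavy chains in input, against 76.0% (72.1 to 79.6) and 77.8% (74.5 to 80.9) in IP. The shares of Ifi27 were far apart between the fractions, and those of H2-D1 had overlapping intervals in neighbouring pools.

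**Figure D3:**
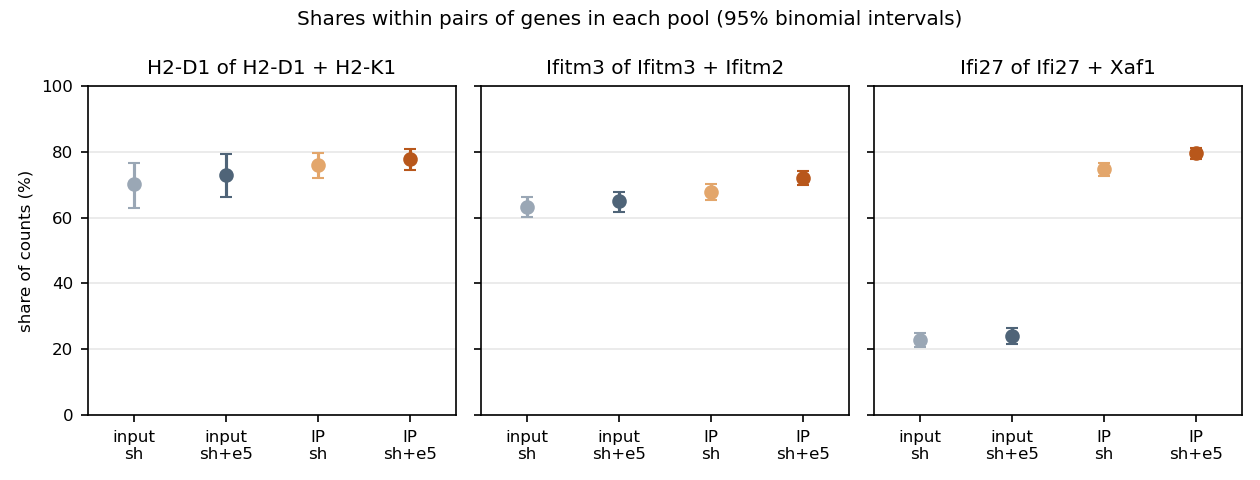
Share of 1 gene in the summed counts of a pair, in percent on an axis from 0 to 100, for the 4 pools in the same order as in the plot of levels. Points are pools and bars are Clopper-Pearson 95% intervals. Ifi27 goes from 22.7% and 24% in input to 74.7% and 79.5% in IP, while Ifitm3 runs from 63.3% to 72.0% and H2-D1 from 70.1% to 77.8%.

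The other genes of these pathways were followed in lists, whose counts are to be read against the 33.5% of all tested genes called higher and the 36.2% called lower (62.4% and 23.4% with library totals). Among genes of class I processing and loading, 11 of 16 were tested, and 4 were higher and 2 lower in IP (median log2 0.44), so the share of higher calls was near that of all genes. Calr, the chaperone calreticulin, was at 1.32 ± 0.13 (edgeR adjusted p = 9.14e-07), Pdia3, its partner in the loading complex, at 0.88 ± 0.14 (6.73e-05), and Rfxap, a subunit of a factor that drives MHC genes, at 2.00 ± 0.53 (0.00391) with 2, 4, 31 and 38 counts. Tapbpl, a peptide editor related to tapasin, was at -3.02 ± 0.19 (edgeR adjusted p = 6.45e-09), and Psme2, a subunit of the proteasome activator PA28, was at -0.60 ± 0.16 (0.00398). With library totals 8 were higher and 1 lower, and Psme2 was then at 0.34 (edgeR adjusted p = 0.0604). Of 17 other class I and class I-like heavy chains, 7 were in the table and 3 were tested, and all 3 were lower in IP. These were H2-T23, which encodes Qa-1, at -2.63 ± 0.15 (edgeR adjusted p = 1.46e-09), Fcgrt, the neonatal Fc receptor chain, at -2.01 ± 0.23 (2.46e-06), and H2-Q7, which encodes Qa-2, at -1.27 ± 0.30 (0.00175). With library totals the first 2 were still called lower and H2-Q7 was not (edgeR adjusted p = 0.302). H2-K1 and H2-D1 were thus closer to the median gene than the 3 other heavy chains tested, a difference between genes that was not tested.

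Interferon receptors and signalling had 10 of 31 symbols tested, older names included, with 4 higher and 4 lower (median -0.56), against 33.5% and 36.2% of all tested genes. Stat2, a subunit of the factor that binds the response element, was at 2.12 ± 0.36 (edgeR adjusted p = 0.000141), Socs3, a feedback inhibitor of JAK kinases, at 1.91 ± 0.32 (0.000119), and Tmem173, the DNA-sensing adaptor STING, at 1.87 ± 0.59 (0.0117) with 1, 5, 27 and 36 counts. Ifnar1, a chain of the type I interferon receptor, was at -2.10 ± 0.16 (edgeR adjusted p = 4.62e-08), Ifngr2, a chain of the interferon gamma receptor, at -1.70 ± 0.31 (0.000269), and Stat3 at -1.02 ± 0.13 (7.36e-06). Stat3 was not called with library totals (-0.07, edgeR adjusted p = 0.586), which gave 5 higher and 2 lower. Of 63 other interferon-stimulated genes, 42 were in the table and 16 were tested, with 6 higher and 3 lower (median 0.07), or 12 higher and 3 lower with library totals, which called 62.4% of all genes higher and 23.4% lower. Lgals3bp, a secreted galectin-binding protein, was at 2.08 ± 0.29 (edgeR adjusted p = 2e-05), Gbp2, a guanylate-binding protein, at 1.88 ± 0.50 (0.00398) with 4, 3, 31 and 43 counts, and Oasl2, a member of the oligoadenylate synthetase family, at 1.05 ± 0.33 (0.0124). Stat2 (5 and 10 counts in the 2 input pools), Socs3 (8 and 8), Lgals3bp (13 and 8) and Oasl2 (12 and 10) also had few input counts. With so few, these genes and Gbp2, Tmem173 and Rfxap passed the filter on low counts only through IP columns, which favours a call of higher. Irgm1, an immunity-related GTPase, was at -2.03 ± 0.26 (edgeR adjusted p = 8.37e-06), Ly6e, a membrane protein, at -1.48 ± 0.24 (8.24e-05), and Ifi27l2a, a relative of Ifi27, at -1.34 ± 0.16 (4.22e-06). Ifi27l2a overlaps Ifi27 in RefSeq and went the opposite way, with 132 and 137 counts in input against 147 and 153 in IP, and reads shared between the 2 genes could be split by the counting.

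The pathway of XIAP, the partner of XAF1, had 5 of 10 genes tested, with 1 higher and 2 lower. Xiap itself was at -2.64 ± 0.35 (edgeR adjusted p = 1.44e-05) with 34, 31, 18 and 11 counts, a value near that of Xaf1. Xiap passed the filter on low counts only through input columns, which favours a call of lower. Birc5, the inhibitor survivin, was at -1.56 ± 0.20 (edgeR adjusted p = 8.93e-06). Both calls of lower level also held with library totals, which added 2 higher calls.

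Markers of the other cells of the ganglion were present in input and differed between the fractions. Of 18 sensory neuron markers, 10 were higher and 3 lower in IP, or 14 higher and 1 lower with library totals. Their summed level was 5400 CPM in both input pools and 9550 and 10100 CPM in IP. Of 9 tested macrophage markers, 7 were lower and 1 higher, and the sum over the 18 found was 277 and 275 CPM in input against 114 and 122 in IP, with Mrc1 at 24, 18, 0 and 0 counts. The marker that was higher, Csf1r, had 4, 9, 62 and 29 counts and was at 1.31 ± 0.54 (edgeR adjusted p = 0.0429). Csf1r passed the filter on low counts only through IP columns, which favours a call of higher. With library totals 2 macrophage markers were lower and 3 higher. Of 12 tested Schwann cell markers 9 were lower and none higher with TMM, but 8 were lower and 3 higher with library totals. The sum of the Schwann cell markers was 1690 and 1700 CPM in input against 545 and 511 in IP. Satellite glia markers summed to 1110 and 1180 against 288 and 282 CPM, but of the 7 tested 3 were lower, 1 was higher (Glul, at 1.94 ± 0.17) and 3 were not called, and with library totals 3 were lower and 3 higher. Fibroblast markers summed to 1800 and 1770 against 473 and 569 CPM, and of the 9 tested 6 were lower and 1 higher (Gsn, at 1.46 ± 0.15), or 4 lower and 3 higher with library totals. Endothelial and mural markers summed to 100 and 118 against 69.5 and 85.7 CPM with TMM but to 71.1 and 84 against 94.8 and 116 with library totals, and of the 3 tested 1 was lower with TMM and 2 were higher with library totals. Erythroid markers summed to 2410 and 2360 against 2.30 and 3.09 CPM. Of 14 lymphocyte and NK cell markers 1 was in the table, Trbc2, with 2, 2, 15 and 23 counts. With TMM scaling B2m, Ifitm2, Ifitm3, Erap1 and Xaf1 were lower in IP, as were the summed macrophage, glial, fibroblast and erythroid markers. With library totals these sums were still lower in IP, the macrophage sum at 197 and 196 CPM in input against 155 and 165. Of these members only Erap1 and Xaf1 were then called lower, and B2m was called higher at 0.40. The part of other cells in these differences was not tested.

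The comparison of e5UTR with shGpr151 within a fraction asks what the added virus changed. There is 1 pool on each side, so these tests compare the reads of 2 pools, without a replicate check. In input 1 member, Erap1, was called lower and none higher, where 0.186% of all tested genes (15) were lower and 0.0124% (1) higher. Erap1 had 27 counts against 169, a ratio of 0.161 (0.103 to 0.242), and was at -2.63 ± 0.32 on the log2 scale (edgeR adjusted p = 1.02e-05). The other 7 tested members had ratios from 0.914 to 1.10 in input, and none had an edgeR adjusted p below 0.986. At an unadjusted p under 0.05, Erap1 alone passed, and the share of all tested genes at that level was not counted. For B2m the interval was 0.916 to 1.08 and for Xaf1 0.85 to 1.01, while for H2-K1 it was as wide as 0.637 to 1.41.

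Cast, the calpain inhibitor calpastatin, overlaps Erap1 in RefSeq. It had 73, 34, 145 and 195 counts in the 4 pools in the usual order, and its ratio of e5UTR to shGpr151 in input was 0.468 (0.302 to 0.712), with a log2 difference of -1.09 ± 0.26 that was not called (edgeR adjusted p = 0.0916). The 2 neighbours were thus both at their lower input level with e5UTR. In IP, Cast had a ratio of 1.24 (0.992 to 1.54). Whether the counting used strand is not stated, so reads of the 2 genes may have been mixed.

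In IP 3 members were called higher with e5UTR (B2m, Ifitm3 and Ifi27) and none lower, where 4.69% of all tested genes were higher and 6.25% lower. The median log2 difference of the 8 tested members was 0.26 and that of all genes 0. B2m had a ratio of 1.23 (1.16 to 1.31) and a log2 difference of 0.30 ± 0.04 (edgeR adjusted p = 1.16e-05). Ifitm3 had a ratio of 1.20 (1.10 to 1.31) and 0.27 ± 0.06 (edgeR adjusted p = 0.00219), and Ifi27 a ratio of 1.18 (1.10 to 1.27) and 0.25 ± 0.07 (0.0121). H2-D1 had a ratio of 1.20 (1.05 to 1.37) and did not pass (edgeR adjusted p = 0.0825), nor did Erap1 with 38 against 18 counts and a ratio of 1.94 (1.08 to 3.61, edgeR adjusted p = 0.236). Ifitm2, at 0.981 (0.861 to 1.12), and Xaf1, at 0.905 (0.793 to 1.03), did not pass either, and H2-K1 was at 1.08 (0.845 to 1.37). At an unadjusted p under 0.05, 4 of the 8 tested members passed, the 3 called and H2-D1. Of all tested genes 10.9% passed the adjusted threshold in either direction, so at least that share passed the unadjusted one. The unadjusted share itself was not counted, so the 4 members cannot be set against it.

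These differences in IP are small, and some calls depend on the scaling. With library totals all 3 were called (B2m 0.28, Ifitm3 0.25 and Ifi27 0.23). DESeq2's size factors, put in place of TMM, moved the median of all genes by -0.07 and the split of calls from 379 higher and 505 lower to 184 higher and 713 lower, and Ifi27 was then not called (edgeR adjusted p = 0.0956). Without any 1 of the 6 IP columns the median of all genes was at -0.09 or -0.10, between 93 and 109 genes were higher, and Ifitm3 and Ifi27 were not called, with log2 differences down to 0.16 and 0.10. B2m was called without each of the 12 columns in turn, at 0.19 to 0.30. The fits without an input column leave the compared IP counts unchanged, so only those without 1 of the 6 IP columns bear on this. Each of those drops only part of 1 pool, so it is not a replicate check.

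**Figure D4:**
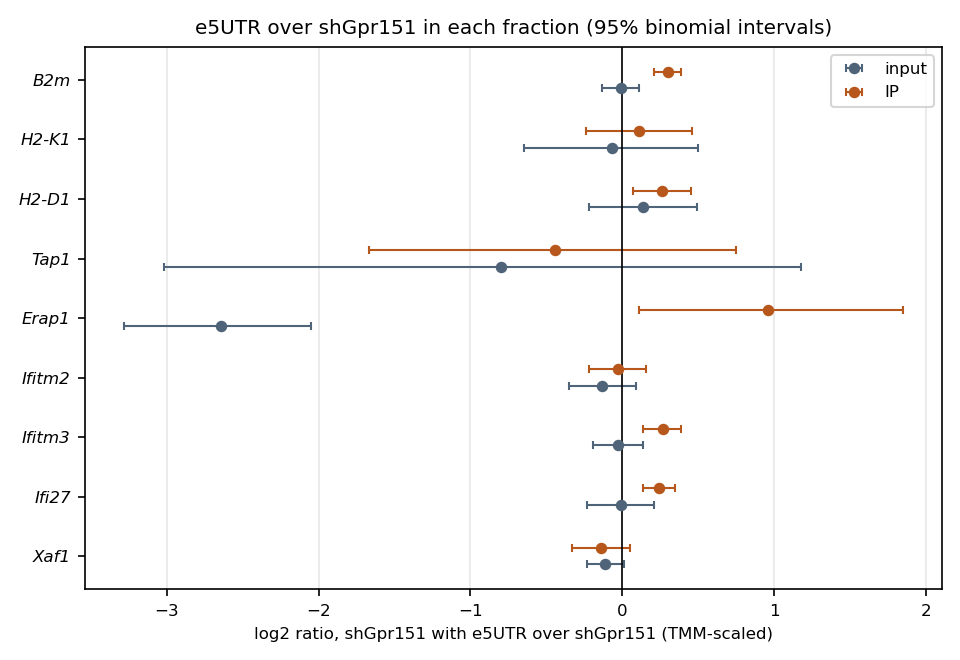
Ratio of e5UTR to shGpr151 for each gene in input and in IP. The horizontal axis is the log2 ratio of the pooled, TMM-scaled counts, and bars are exact binomial 95% intervals. In input only Erap1, at -2.64, has an interval away from 0. In IP the intervals of B2m, Ifitm3, Ifi27, H2-D1 and Erap1 lie above 0, of which the first 3 passed the edgeR test over all genes.

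The interaction of fraction and e5UTR, which is the e5UTR difference in IP minus that in input, was called higher for 2 members and lower for none, against 1.57% and 3.54% of all tested genes. Erap1 was at 3.57 ± 0.58 (edgeR adjusted p = 0.000156) and B2m at 0.31 ± 0.07 (0.00574). Ifitm3 was at 0.30 ± 0.09 and did not pass (edgeR adjusted p = 0.0705), and Ifi27 was at 0.26 ± 0.14 (0.381). The difference between the fractions was therefore not shown for Ifitm3 and Ifi27. At an unadjusted p under 0.05, 3 members passed. Of all tested genes 5.11% passed the adjusted threshold in either direction, so at least that share passed the unadjusted one. The unadjusted share itself was not counted, so the 3 members cannot be set against it. Cast had an interaction of 1.40 ± 0.30 (edgeR adjusted p = 0.00327). For B2m the call ended in DESeq2 (adjusted p = 0.073) and without each of the 6 IP columns, at 0.20 to 0.23. DESeq2's size factors moved the split over all genes from 127 higher and 286 lower to 56 higher and 364 lower.

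Among the other pathway genes, 2 were called with e5UTR in IP, both higher, where 4.69% of all tested genes were higher. Psme2 was higher at 0.43 ± 0.11 (edgeR adjusted p = 0.00642), with 370 and 542 counts, and was the 1 call among the 11 tested genes of class I processing. Shisa5, an interferon- and p53-inducible membrane protein also known as scotin, was higher at 0.51 ± 0.16 (edgeR adjusted p = 0.0354), with 130 and 201 counts, and was the 1 call among the 16 tested interferon-stimulated genes, whose median was 0.21. No tested gene of the other heavy chains, of interferon signalling or of the XIAP pathway was called in IP, and none of these 5 lists held a call in input. Some markers of other cells were higher with e5UTR in IP as well: the fibroblast genes Mgp, at 0.52 ± 0.08 (edgeR adjusted p = 2.04e-05), and Apod, at 0.33 ± 0.09 (0.0118), and the glial gene Fabp7, at 0.55 ± 0.12 (0.00175). Of the neuronal markers Calca was higher at 0.22 ± 0.05 (edgeR adjusted p = 0.00187), Stmn2 at 0.14 ± 0.03 (0.00034) and Uchl1 at 0.14 ± 0.02 (7.97e-06). The satellite glia marker Apoe was lower at -0.32 ± 0.08 (edgeR adjusted p = 0.0127). No tested macrophage marker was called with e5UTR in IP, and the part of other cells in the higher B2m, Ifitm3 and Ifi27 was not tested.

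The genes whose level followed a member most closely over the 4 pools were found by the largest difference, over the pools, between the centred log2 values (CPM with a pseudocount of 0.5) of the 2 genes, among tested genes with a mean level within 2 log2 units of the member's. For B2m these were Gpx1, a glutathione peroxidase, at a largest difference of 0.02, then Rps13 at 0.032 and Txndc17 at 0.041. For Ifitm3 they were Zfp706 (0.023), Rpl9 (0.035) and Mrpl32 (0.039), 2 of them ribosomal protein genes. For Ifi27 they were Rbx1 (0.04), Rtl8a (0.048) and Chmp4b (0.072), and for H2-D1 Diablo (0.05), Triap1 (0.056) and Nts (0.056). H2-K1 was matched by Mia2 (0.031), Mrpl28 (0.042) and Nol7 (0.052), and Ifitm2 by Atl3 (0.007), Sh3bp5l (0.054) and Cdk9 (0.061). Xaf1 was followed by Fn1, which encodes fibronectin (0.021), Ppan (0.045) and Wdhd1 (0.056). Each of these 7 members had between 80 and 353 genes within 0.2, so the pattern of these members was shared by many genes over so few pools. Erap1 had none of 5741 genes within 0.2, and the closest were Gm20390 (0.232), Trpm2 (0.574) and Add3 (0.602). Trpm2, a calcium-permeable channel, was at -2.07 ± 0.35 with e5UTR in input (edgeR adjusted p = 0.00245), and Add3, a cytoskeletal adducin, at -1.71 ± 0.26 (0.000645). Both were picked for following Erap1 over these same pools. A lower input level with e5UTR was thus part of the choice, and these p-values are no separate support.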

How the data were processed

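The authors' deposited table holds estimated counts per Ensembl gene, written as whole numbers. Per the submitters' processing notes, minimap2, Salmon and the builds GRCm39 and mm39 were used, with no version or setting named. Per the labels' protocols, libraries came from a nanopore cDNA-PCR barcoding kit, whose amplified reads are not independent molecules, so intervals cover counting error only. IDs without a symbol held 11% of the counts. The filterByExpr function (minimum count 10, minimum total 15) kept 8085 genes. IP was compared with input over 4 pools, and e5UTR and the interaction over 12 columns, with edgeR 4.0.16 (R 4.3.3, TMM, Benjamini-Hochberg adjustment over all genes tested). The biological coefficient of variation was 10.3% over pools and 2.58% over columns. DESeq2 1.42.0, limma-voom (limma 3.58.1), other scalings, filters and left-out columns were tried. Scripts were tested on simulated data. The genes and lists were chosen with earlier results of these data known. All 9 genes are named, with the first 3 called genes per direction by size in each list for IP against input, every called list gene elsewhere, the 3 genes most alike, and overlapping genes. Some genes that fall under this rule are not reported here.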

Additional observations from a re-analysis of the deposited data

Results flagged for a closer look

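For 2 genes the e5UTR difference in IP passed the test of its difference from that in input. This test compares the reads of 4 pools, with 1 pool for each fraction and treatment. For Erap1 the difference in IP minus that in input was 3.57 ± 0.58 on the log2 scale (edgeR adjusted p = 0.000156), with 169 and 27 counts in input and 18 and 38 in IP. For B2m it was 0.31 ± 0.07 (edgeR adjusted p = 0.00574), with 1124 and 1114 counts in input and 1866 and 2495 in IP. The B2m call was lost in 7 of 19 alternatives, which were DESeq2 (adjusted p = 0.073) and the fits without each of the 6 IP columns (edgeR adjusted p = 0.0813 to 0.131).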

How the results depend on the processing

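IP against input depended most on the scaling. With library totals, 5046 genes were higher and 1893 lower, 4 members were higher and 2 lower, and B2m (0.40), H2-K1 (0.82) and Ifitm3 (0.23) changed sign, as did B2m (0.24 and 0.53) and Ifitm3 (0.08 and 0.35) within shGpr151 and within e5UTR. Members called higher were 2 without the filter on low counts, with columns as samples, and with columns as samples and a replicate block, because H2-D1 was then called. Left-out pools and columns gave 1 to 2. For e5UTR in input, 0 genes were higher in DESeq2, in limma-voom and in the fit of the 6 columns of the fraction, against 1 in edgeR over all columns, and 2 without the filter, and left-out columns gave 0 to 3 higher and 9 to 17 lower genes. For e5UTR in IP, 93 genes were higher in DESeq2, 184 with its size factors and 93 to 384 with a column left out, and 1 member was higher in DESeq2 and 1 to 3 with a column left out. For the interaction, 38 genes were higher in DESeq2, 56 with its size factors and 36 to 109 with a column left out. DESeq2 called 0 members there and gave Erap1 no adjusted p, and left-out columns gave 1 to 2. Leaving out an IP column reduced the genes tested to between 7690 and 7712 and put the median e5UTR difference of all genes in IP at -0.09 or -0.10. The filter on a mean count of at least 10 tested fewer genes, 6759, and called 3 members higher with e5UTR in IP. Why the calls ended was not tested further.

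With the replicate block no member's call changed in the 3 comparisons fitted over columns (B2m in IP 0.30, edgeR adjusted p = 4.13e-05). The numbers do not pair the columns: deviations of same-numbered columns had correlations of -0.19 to 0.20 over 18 pairs, and 4 of 12 columns correlated best with their own number. Erap1 was lower with e5UTR in input under all 20 alternatives (-2.99 to -2.22), and Xaf1 was lower and Ifi27 higher in IP under all 25. Among the 20, the fits without an IP column leave the input counts of Erap1 unchanged. Depth limits Tap1, which without the filter was at -0.07 in IP against input (edgeR adjusted p = 0.928), and H2-K1.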
